A study of Mus musculus with 17 samples.

Results

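The 5 C/EBP genes Cebpa, Cebpb, Cebpd, Cebpg and Cebpe were followed in 17 single-cell RNA-seq libraries of mouse skin and kidney, out of 30406 genes that all libraries have in common. The family was chosen by its measured values: Cebpb was lower after bleomycin in skin mural cells (pericytes and smooth muscle), so the values of all 5 genes in those cells are a description and carry no test. The labels call the cells of all 17 libraries PDGFR-β+GFP+, sorted by flow cytometry from mice 8 weeks old at the start; the kidney experiment is known from the sample labels alone. Few of the gated cells carried mural markers: 3 to 43 a library in skin and 0 to 13 in kidney, where 8677 of 10664 cells of SARAWT vehicle 1 were gated as proximal tubule. Every mouse, controls included, carried PDGFRb-Cre and the Z/EG reporter, which turns on GFP where Cre has acted, and SARATg mice also carried a human ZFYVE9 (SARA) cDNA behind a CAG promoter and a floxed stop at Rosa26. PDGFRb-Cre is active in leukocytes as well as in pericytes, so the sorted cells were not mural cells alone. In skin there were 3 SARAWT PBS, 3 SARAWT bleomycin, 1 SARATg PBS and 1 SARATg bleomycin libraries, with subcutaneous bleomycin at 20 mg/kg, given 3 times a week for 2 weeks by the labels and daily by the published methods. In kidney there were 3 SARAWT vehicle, 3 SARAWT aristolochic acid, 2 SARATg vehicle and 1 SARATg aristolochic acid libraries, with aristolochic acid given into the peritoneum at 5 mg/kg 3 times a week for 3 weeks.

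C/EBP proteins are basic leucine zipper transcription factors that bind DNA as dimers with each other and with related zipper proteins. C/EBPα, encoded by Cebpa, drives differentiation of adipocytes, hepatocytes and myeloid progenitors. C/EBPβ and C/EBPδ, encoded by Cebpb and Cebpd, are induced by cytokines, injury and cyclic AMP, and they act in the acute-phase response, in early adipogenesis and in wound repair. C/EBPε, encoded by Cebpe, is needed for the last steps of granulocyte maturation, and C/EBPγ, encoded by Cebpg, lacks an activation domain and acts through its partners, ATF4 among them.

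The genes lie on 4 chromosomes of GRCm38: Cebpb at chr2:167688915-167690418, with 1 exon, Cebpa at chr7:35119293-35121928, Cebpd at chr16:15887286-15891031, Cebpg at chr7:35046422-35056573 and Cebpe at chr14:54710360-54712174. Cebpa and Cebpg both lie on chromosome 7, on opposite strands. The protein-coding genes Tmem189 and Spidr overlap Cebpb and Cebpd on the opposite strand, Gm45091 is antisense to Cebpa, and Gm44836, Gm45094 (both on the same strand) and Gm45095 (antisense) overlap Cebpg. RefSeq promoter entries matched Cebpa, Cebpb and Cebpg. The 250 bases before the start of Cebpb and of Cebpg are shown because the choice of the family rests on the first of these genes, while the second varied least between cell classes. Both are written 5′ to 3′ on the strand of the gene from GRCm38.p6, at chr2:167688665-167688914 on the plus strand for Cebpb and chr7:35056567-35056816 on the minus strand for Cebpg. Capitals mark TGACG or its reverse complement CGTCA, the core of the site bound by CREB and ATF proteins, which mediates induction by cyclic AMP.
Cebpb: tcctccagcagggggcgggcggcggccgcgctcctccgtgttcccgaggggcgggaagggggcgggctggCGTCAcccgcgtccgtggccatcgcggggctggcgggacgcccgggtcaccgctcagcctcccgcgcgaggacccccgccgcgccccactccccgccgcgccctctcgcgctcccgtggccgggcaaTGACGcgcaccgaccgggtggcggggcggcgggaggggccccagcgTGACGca
Cebpg: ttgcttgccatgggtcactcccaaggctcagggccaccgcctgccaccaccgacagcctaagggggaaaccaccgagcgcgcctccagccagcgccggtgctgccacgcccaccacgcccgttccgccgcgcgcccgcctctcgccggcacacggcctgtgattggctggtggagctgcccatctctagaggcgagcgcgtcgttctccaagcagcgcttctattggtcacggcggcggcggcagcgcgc
The Cebpb promoter held 3 copies, at -180 to -176, -53 to -49 and -7 to -3 from the start, and the Cebpg and Cebpa promoters held 0. Of 32851 promoters of 250 bases in the same table, 17.8% held at least 1 copy on either strand. The Cebpa promoter instead held a TATAAA at -30 to -25, letters found in 12.4% of those promoters. A match of letters is a description of the sequence and not a measured binding site.

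Levels are the CPM of a gene, its UMI counts scaled to the total of all cells of 1 class in 1 library. A cell was gated to a class by its fixed marker genes (at least 3 detected and at least 2 more than for any other class), and no C/EBP gene was a marker. After filtering, 28978 skin cells and 66474 kidney cells remained, of which 47 to 79.3% (skin) and 84.6 to 93.2% (kidney) were gated, with 3355217 to 69765525 UMIs per skin library and 28660151 to 137093834 per kidney library. Several libraries stood apart. Zfyve9, the endogenous gene of SARA, or the human entry, went against the label in the libraries labelled SARAWT PBS 3 (616 CPM of Zfyve9), SARAWT PBS 1 (845 CPM of human ZFYVE9) and SARAWT aristolochic acid 1 (163 CPM). Human ZFYVE9 was also counted in the other 3 libraries with that entry, SARAWT bleomycin 1 and 2 and PBS 2, at 87.3, 113 and 187 CPM, though their label names no transgene. The library labelled SARATg aristolochic acid 1 had 19.9 CPM, against 92.3 and 89.9 CPM in SARATg vehicle. Cell barcodes were shared with another skin library in 55.5% of SARAWT PBS 2, 22.1% of bleomycin 2, 17.6% of bleomycin 1 and 7.38% of PBS 1, and in at most 0.824% of the others. In kidney, SARAWT vehicle 3 held 3171 T cells and 1168 proximal tubule cells, where the other vehicle libraries held 312 and 382 T cells and 8677 and 7318 proximal tubule cells, and the 3 SARAWT aristolochic acid libraries held 1954 to 3711 and 603 to 1562.

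In the control libraries each C/EBP gene had its own order of cell classes. Cebpb was highest in neutrophils, at 5086 ± 548 CPM (SD, n = 3) in SARAWT PBS skin and 1929 ± 716 CPM (n = 3) in SARAWT vehicle kidney. Mural cells of skin followed at 4005 ± 919 CPM, and the ranges of neutrophils and mural cells overlapped. Below them came muscle cells (2079 CPM, n = 2), macrophages (1578 ± 243), fibroblasts (1039 ± 227) and keratinocytes (529 ± 179), down to Schwann cells (160 ± 15.6, n = 2) and dendritic cells (144 ± 86.3, and 94.7 without PBS 2). In kidney, macrophages held 494 ± 229 CPM and endothelial cells 236 ± 356 (30.3 without vehicle 3, n = 2), and dendritic cells were again the lowest at 16.1 ± 12 CPM (9.81 without vehicle 3). Gated kidney neutrophils of SARAWT vehicle also held 7962 to 22071 CPM of summed proximal tubule genes, against 324 to 4956 in macrophages. Proximal tubule cells held 34268 to 71044. The part of that RNA in the neutrophil levels of any member was not tested. Of 11 neighbouring pairs of classes in the order of Cebpb levels, 8 in skin and 9 in kidney overlapped in range.

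Cebpd was led by other classes in skin. Muscle cells (910 ± 590, n = 2), endothelial cells (753 ± 811), Schwann cells (556 ± 156, n = 2), neutrophils (414 ± 217), mural cells (407 ± 105) and fibroblasts (334 ± 132) did not differ beyond their ranges from the next class in the order, until macrophages at 129 ± 24.3 CPM stood below fibroblasts. The highest means moved with 1 library: without PBS 3 the endothelial mean was 289 CPM (n = 2), and without PBS 1 the muscle value was 492 (n = 1). In kidney, Cebpd was at 706 ± 143 CPM in neutrophils (1065 as a mean over cells) and 488 ± 690 in endothelial cells, and the intercalated cells of the collecting duct, which secrete acid or base, stood at 220 ± 111, above macrophages (127 ± 15.3). The endothelial place rested on vehicle 3: without it the mean was 90 CPM (n = 2), below intercalated cells (156) and macrophages (133). T cells were lowest in kidney, at 5.44 ± 2.17 CPM.

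Cebpa was highest in keratinocytes (210 ± 61.3 CPM), which did not overlap macrophages (86.5 ± 42.8), and in kidney it was highest in macrophages (97.3 ± 20.1), which did not overlap dendritic cells (32.3 ± 16.7). Cebpe was highest in neutrophils. It reached 48.7 ± 44.7 CPM in skin neutrophils (23.2 without PBS 2) and 36.8 ± 26.5 in kidney neutrophils. Its mean over the SARAWT control libraries was at most 6.04 CPM in any other skin class (mast cells) and 2.42 in any other kidney class (macrophages). These limits moved with 1 library: mast cells were at 9.96 CPM without PBS 1 and 2.12 without PBS 3, on 3 and 1 UMIs, muscle cells at 11.5 without PBS 3, on 1 UMI, and kidney macrophages at 1.28 without vehicle 3. Cebpg had the flattest order, with class means of 16.9 (mural cells, 7.56 without PBS 3) to 134 CPM in skin and 31.6 to 123 in kidney, and only kidney endothelial cells (123 ± 18.5) stood above the next class. In these 3′ libraries counts were not adjusted for length, so a level of 1 gene is not set against a level of another.

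**Figure D1:**
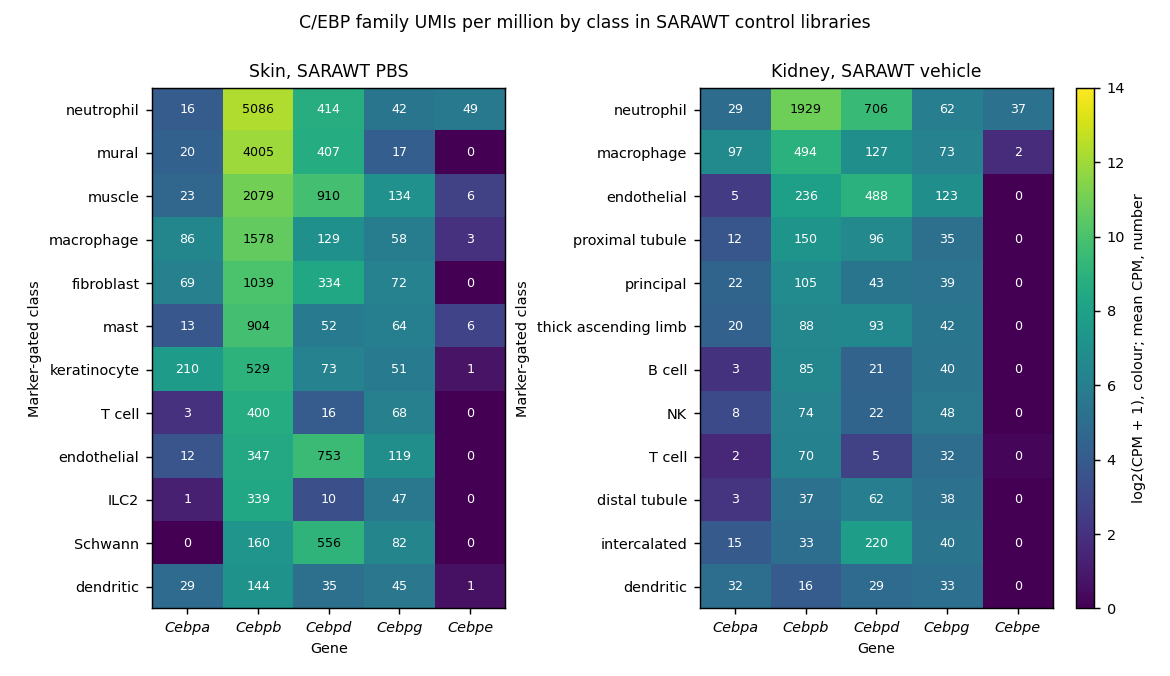
Mean level of the 5 C/EBP genes (columns) in the gated classes (ordered by Cebpb) of SARAWT PBS skin and SARAWT vehicle kidney; colour is log2(CPM + 1) and the printed number is the mean CPM of 2 or 3 libraries. Cebpb led in neutrophils of both tissues and in skin mural cells, Cebpe was near 0 except in neutrophils, and Cebpg varied least.

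The genes with the most similar order of classes were found by Pearson correlation of log2(CPM + 1) over the 24 classes of both tissues. These points share libraries, so r is a description. For Cebpb they were A530013C23Rik (r = 0.84), Ndel1 (0.84) and Cxcl2 (0.83), for Cebpd Mbnl2 (0.82), Fndc3b (0.81) and Col4a2 (0.80), for Cebpa Il13ra1 (0.70), Cers6 (0.68) and Cxcl16 (0.67), for Cebpg Sema6a (0.78), Mest (0.77) and Slc43a3 (0.75), and for Cebpe Pstpip2 (0.91), Chil1 (0.89) and Clec4e (0.89). Among the members themselves, Cebpb followed Cebpe most closely (r = 0.66), then Cebpd (0.52) and Cebpa (0.34). Outside neutrophils Cebpe was at most 6.04 CPM and at 0 in many classes, so every r with Cebpe rests on few classes.

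In skin mural cells, the values that led to the choice of the family were these. Cebpb stood at 3556, 5062 and 3396 CPM in the 3 SARAWT PBS libraries and at 509, 637 and 395 CPM in the 3 SARAWT bleomycin libraries. It stood at 1208 CPM (exact Poisson 95% interval 1062 to 1369) in SARATg PBS and at 345 (251 to 464) in SARATg bleomycin. The SARAWT groups did not overlap, and the SARATg PBS library lay between them. PBS 1 and PBS 3, at 3556 and 3396 CPM, are the libraries that go against their SARAWT label, so no order by genotype is read. The log2 ratio of the SARAWT means was -2.96, with a spread of 0.47 carried from the SDs (n = 3 and 3). The comparison rests on few cells: 20, 11 and 43 mural cells in PBS and 3, 8 and 9 in bleomycin, and in bleomycin 1 only 5 Cebpb UMIs of 9826. With doublets kept, bleomycin 3 stood at 1059 CPM in place of 395.

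The mean over cells gave a smaller mural difference than the pooled UMIs, with a log2 ratio of -1.65 for Cebpb. When each cell was thinned to 1000 UMIs, 87.9, 81.7 and 57.8% of PBS mural cells had a Cebpb UMI, and 22.5, 43.8 and 30.8% of bleomycin mural cells did, from 14, 11 and 43 and from 1, 5 and 9 cells deep enough to be thinned. Unthinned, the shares were 95, 100 and 74.4% against 66.7, 87.5 and 88.9%, so the groups overlapped without thinning. Keratinocytes of these 6 libraries had a Cebpb UMI in 29.2 to 42.7% of thinned cells, against which 1 of the 3 bleomycin mural values lay below, 1 within and 1 above, and neutrophils in 93.0 to 98.1%. No class was free of Cebpb, so background from free RNA could not be read from a class that lacks the gene.

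Mural Cebpd was at 448, 287 and 484 CPM in PBS. In bleomycin it was at 0 (0 of 9826 UMIs, where the 3 counts that a count of 0 allows are 305 CPM), 212 and 167 CPM. The SARATg libraries held 271 (204 to 353) in PBS and 39.2 (12.7 to 91.6) in bleomycin. Since that limit lies above the PBS 2 value, no order of the SARAWT groups is read from mural Cebpd. Cebpa, Cebpg and Cebpe had 0 to 12 UMIs in each mural library, too few to compare. Among 1066 genes with enough counts in mural cells, 13.8% did not overlap and were lower with bleomycin. Markers of other states varied beside Cebpb: the summed CPM of 19 immediate early genes, which are switched on within minutes of stress or cell dissociation, was 19641 to 22922 in PBS and 6106, 24302 and 15418 in bleomycin 1, 2 and 3. A sum of 10 leukocyte genes was 74.3 to 157 CPM in PBS, 204 to 318 in bleomycin and 2919 in SARATg PBS, and the part of either sum in the Cebpb values was not tested.

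**Figure D2:**
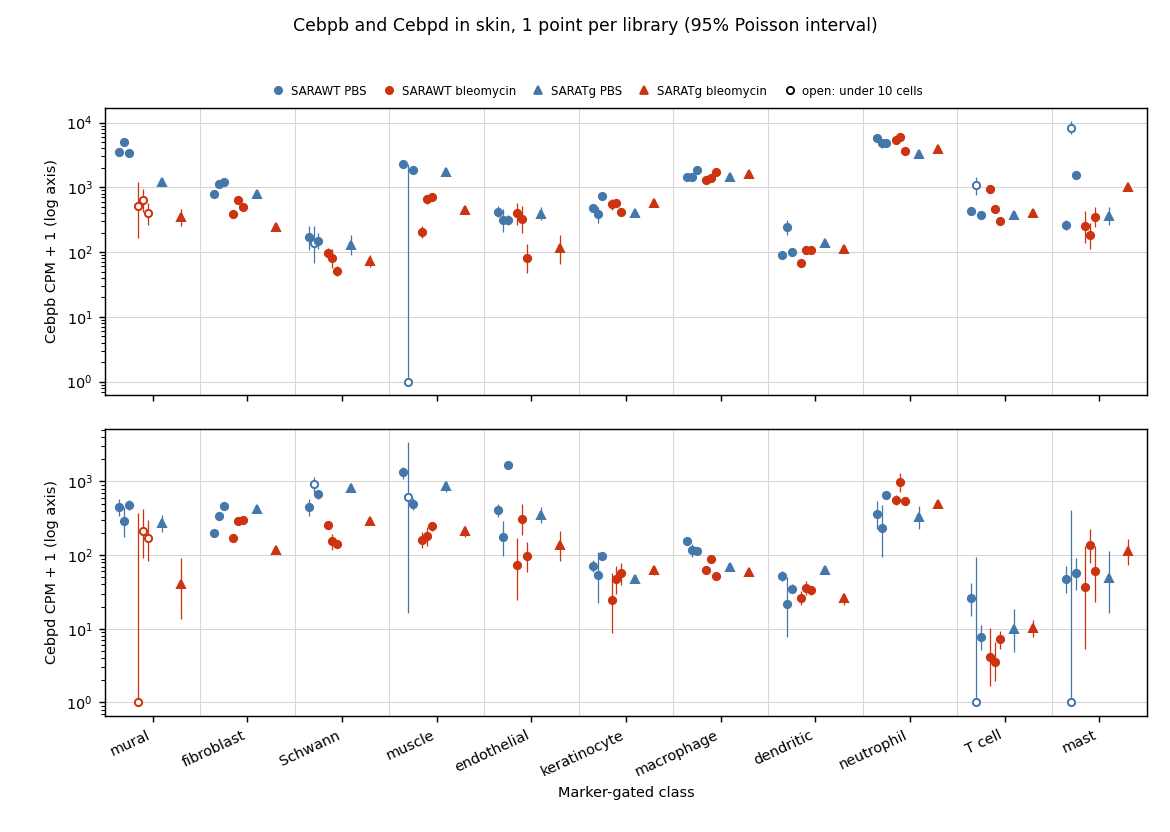
Cebpb (top) and Cebpd (bottom) in skin, as CPM + 1 on a log axis, with 1 point per library and class and exact Poisson 95% intervals; circles are SARAWT, triangles SARATg, blue PBS, red bleomycin, and open circles hold under 10 cells. Mural, fibroblast, Schwann and muscle cells had lower Cebpb in every bleomycin library than in any PBS library with at least 10 cells, and macrophages and neutrophils overlapped.

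The question for the other skin classes was whether the C/EBP genes also differed there between SARAWT bleomycin and SARAWT PBS. Their cells played no part in the choice of genes but came from the same 6 libraries. In edgeR fits of 10 classes, 33 of 50 gene and class pairs had enough counts to be tested, and 24 were lower and 9 higher with bleomycin. Cebpd in Schwann cells fell, 1 of the 33 pairs at a Benjamini-Hochberg adjusted p under 0.05, where 642 of 62692 tests over all genes and these classes (1.02%) passed. At an unadjusted p under 0.05 there were 12 pairs, where 13.8% of all tests did so. The groups did not overlap in 10 pairs, 9 of them lower with bleomycin, where over all genes and 11 classes, mural cells included, 13.3% were lower and 11% higher without overlap.

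Mfap5 is among the markers of the fibroblast gate, and the published study called skin cells with Mfap5 noncanonical pericytes. It reported no fibroblast cluster and allowed that some of those cells could be fibroblasts. The gate held 596, 113 and 317 cells in SARAWT PBS and 102, 138 and 106 in SARAWT bleomycin. Fibroblasts had less Cebpb with bleomycin in every library. The levels were 787, 1107 and 1225 CPM in PBS and 384, 646 and 489 in bleomycin, and 801 (788 to 815) against 245 (238 to 254) in the SARATg pair. The groups did not overlap, which in fibroblasts held for 15% of 10283 genes in this direction, and 1.48% of genes passed the adjusted threshold. The log2 fold change was -1.04 ± 0.28 (SE), and edgeR's adjusted p of 0.0868 missed the threshold. Same-numbered PBS and bleomycin fibroblast samples deviated together (r of 0.20 to 0.31 in each of 3 pairs). With the replicate number as a block the change was -1.03 (adjusted p = 0.0312 by edgeR). In that fit 887 genes passed in place of 152. By number these libraries also differ in processing. Those numbered 1 and 2 have a gene list of 32286 entries and Cell Ranger 4.0.0. Those numbered 3 have 31053 entries and 3.1.0. With the gene list as a covariate Cebpb did not pass, when 76 genes did. The part of processing in the pairing was not tested. Without the libraries labelled PBS 1 and 3 the change was -1.11. That fit kept 1 PBS sample, which was assumed to vary like the bleomycin group. Without shared barcodes the change was -0.56 (adjusted p = 0.562).

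The other 3 members tested in fibroblasts were also below 0 on the log2 scale and none passed; Cebpe had too few counts for a test. Cebpa was at 105, 62.8 and 38.3 CPM in PBS and 14, 44.9 and 34.9 in bleomycin, with 16.6 and 17.2 in the SARATg pair. The groups overlapped (log2 fold change -1.13 ± 0.44, adjusted p = 0.173 by edgeR). Cebpd (-0.42 ± 0.37) and Cebpg (-0.38 ± 0.26) overlapped too, though the SARATg pair held 420 and 115 CPM of Cebpd. The immediate early genes moved alongside: their summed CPM in fibroblasts was 12268 to 17814 in PBS and 6280 to 10309 in bleomycin, 18 of 19 had a log2 fold change below 0 (median -0.71, against -0.04 over all genes) and 0 passed. Their part in the Cebpb values was not tested.

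Schwann cells, the glia of peripheral nerves, gave the pair that passed. Cebpd was at 445 and 666 CPM in the libraries labelled PBS 1 and PBS 3, and at 252, 153 and 142 CPM in bleomycin. PBS 2 had 8 Schwann cells and was left out of the fit. The SARATg pair held 821 (712 to 942) and 291 (261 to 322). All bleomycin libraries lay below all PBS libraries, with a log2 fold change of -1.52 ± 0.31 and an adjusted p of 0.0211 by edgeR, where 7.75% of 6210 genes passed in Schwann cells and 29.8% did not overlap in this direction. The call was lost with a stricter gate (-1.23, adjusted p = 0.0687), without shared barcodes (-1.60, adjusted p = 0.145), without bleomycin 2 (-1.39, adjusted p = 0.0808) and without PBS 3 (-1.01, adjusted p = 0.144). Leaving out either PBS library keeps 1 PBS sample, which is then assumed to vary like the bleomycin group. Both PBS libraries of this fit go against their genotype label, so no fit without them could be made. The gated Schwann cells also differed in depth, with medians of 4053 and 5340.5 UMIs a cell in PBS 1 and 3 and 13510 to 15407.5 in bleomycin, and 5 of 27 and 5 of 44 cells only just met the gate in PBS against 22 of 66, 8 of 23 and 27 of 136 in bleomycin. With a looser gate the change of Cebpd in Schwann cells was -1.78 (adjusted p = 0.0117 by edgeR), and the part of depth was not tested.

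Cebpb in Schwann cells was at 171 and 149 CPM in PBS and 96.6, 80.1 and 50.7 in bleomycin (log2 fold change -0.98 ± 0.32, adjusted p = 0.0811 by edgeR), with 129 and 72.1 CPM in the SARATg pair. Cebpg followed at 66.8 and 97.2 against 41.4, 46.1 and 53.7 CPM (-0.75 ± 0.30, adjusted p = 0.134), and 89.0 and 35.6 in the SARATg pair. Neither gene overlapped between the groups. Sums of other genes differed as well: the immediate early genes summed to 10900 and 8114 CPM in PBS and 4315 to 4821 in bleomycin, and the leukocyte genes to 2204 CPM in PBS 1, 80.0 in PBS 3 and 90.5 to 163 in bleomycin. Whether either sum bears on the C/EBP values was not tested, and without PBS 1 Cebpd changed by -1.81 (adjusted p = 0.0396).

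Muscle cells, gated by satellite cell and myoblast genes, had lower values of 3 members. Cebpb was at 2308 and 1850 CPM in PBS 1 and 3 and at 205, 650 and 701 in bleomycin (log2 fold change -2.14 ± 0.47, adjusted p = 0.0843 by edgeR). Cebpd was at 1327 and 492 CPM against 162, 180 and 247 (-2.33 ± 0.46, adjusted p = 0.0791). Cebpg was at 162 and 107 CPM against 25.3, 18.0 and 66.4 (-1.84 ± 0.56, adjusted p = 0.161). None overlapped between the groups, where 15.5% of 4219 genes did so in this direction (25.2% in the other) and 0.0237% passed the threshold, and none passed here. Without PBS 1 and without PBS 3 the change was -1.94 and -2.19 for Cebpb, -1.42 and -2.78 for Cebpd (adjusted p = 0.0262 without PBS 3, by edgeR) and -1.55 and -2.07 for Cebpg, each with 1 PBS sample remaining that was assumed to vary like the bleomycin group. In the SARATg pair, bleomycin was lower for all 3 genes: 1722 and 441 CPM for Cebpb, 864 and 209 for Cebpd, and 136 and 45.8 for Cebpg. With 12 to 54 muscle cells a library, DESeq2 gave adjusted p = 0.0063 for Cebpb and 0.00161 for Cebpd on the same counts. The immediate early genes summed to 9070 and 11341 CPM in PBS 1 and 3 and to 5443, 7122 and 3654 in bleomycin 1, 2 and 3, and their part in these values was not tested. The median depth was 7604.5 and 7026 UMIs a cell in PBS 1 and 3 against 19153, 12295 and 13808 in bleomycin, and 3 of 12 and 9 of 35 cells only just met the gate against 8 of 13, 7 of 13 and 22 of 54. With a looser gate the muscle changes were -1.80 for Cebpb, -2.19 for Cebpd and -1.49 for Cebpg, the stricter gate left too few muscle cells for a fit, and the part of depth was not tested.

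In endothelial cells 1 library decided the value for Cebpd, which was at 403, 175 and 1680 CPM in PBS and 72.9, 311 and 95.5 in bleomycin. The groups overlapped (log2 fold change -2.36 ± 0.82, adjusted p = 0.243 by edgeR), as did 3 of 3 members tested there, where 9.78% of 2536 endothelial genes did not overlap and were lower, 7.81% were higher and 0.237% passed, and without the library labelled PBS 3 the change was -0.93. Without PBS 1 and 3 it was -0.18, with 1 PBS sample remaining. The leukocyte genes summed to 649 to 1423 CPM in PBS endothelial cells and 225 to 481 in bleomycin, without overlap and highest in PBS 3, and the part of that sum in the Cebpd values was not tested. Keratinocyte Cebpb overlapped (529 ± 179 against 513 ± 84.1 CPM, log2 fold change 0.01 ± 0.30), and Cebpg was the 1 member whose libraries did not overlap and were higher with bleomycin: 57.7, 30.6 and 65.9 against 66.4, 86.6 and 72.7 CPM (0.49 ± 0.29, adjusted p = 0.531), where 5.81% of keratinocyte genes did so.

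Macrophage and neutrophil Cebpb overlapped between the groups. In macrophages it was at 1440, 1435 and 1859 CPM in PBS and 1319, 1395 and 1729 in bleomycin (log2 fold change -0.03 ± 0.24), and in neutrophils at 5719, 4783 and 4755 against 5367, 6010 and 3614 (0.03 ± 0.33). The SARATg pair held 1427 and 1598 CPM in macrophages and 3293 and 3929 in neutrophils. Macrophage Cebpd did not overlap: 157, 116 and 113 CPM in PBS against 61.7, 86.5 and 51.4 in bleomycin (-0.88 ± 0.23, adjusted p = 0.312 by edgeR), where 8.66% of 11553 genes did so in this direction, 6.46% in the other, and 0.0173% passed. Without PBS 1 and 3 the change of macrophage Cebpd was -0.69, with 1 PBS sample remaining. Among neutrophil genes 6.25% were lower and 7.64% higher without overlap. Macrophage Cebpa, at 128, 89.4 and 42.3 against 147, 147 and 88.1 CPM, overlapped (0.67 ± 0.36). Same-numbered macrophage samples deviated together (r of 0.23 to 0.57 in each of 3 pairs). Within those pairs Cebpa was higher and Cebpb and Cebpd lower with bleomycin in all 3, and none passed with the replicate block.

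Set against macrophages of the same library, fibroblast Cebpb was lower by 0.87, 0.37 and 0.60 log2 units in PBS and by 1.78, 1.11 and 1.82 in bleomycin, with 0.83 and 2.70 in the SARATg pair. The mean difference of bleomycin minus PBS was -0.95, with all 3 bleomycin libraries below all 3 PBS libraries. The 2-sided exact permutation test gave p = 0.1, the smallest that 3 against 3 allows, and the pair of classes was picked after their values had been seen.

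**Figure D3:**
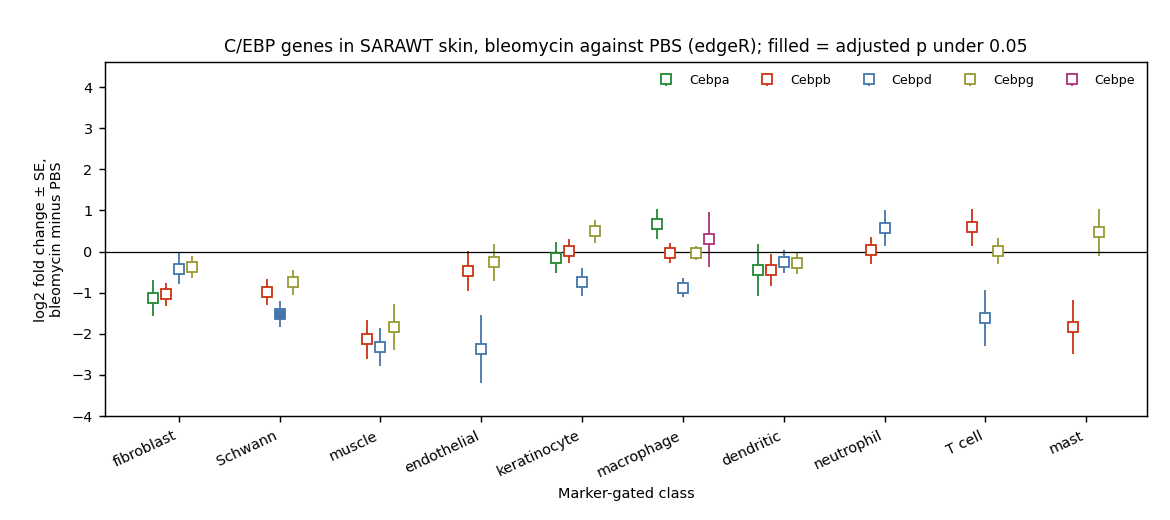
Log2 fold change ± SE (vertical axis) of each tested C/EBP gene by skin class (horizontal axis), SARAWT bleomycin minus SARAWT PBS, from edgeR; the filled square passed an adjusted p of 0.05. Cebpd in Schwann cells was the filled square at -1.52, and Cebpb in macrophages, neutrophils and keratinocytes lay at -0.03, 0.03 and 0.01.

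Among lymphoid and remaining classes, the T cell values of Cebpd did not overlap (25 and 6.73 CPM in PBS 1 and 3 against 3.16, 2.58 and 6.19 in bleomycin) and had an adjusted p of 0.903 by edgeR at a log2 fold change of -1.61 ± 0.68, where 14% of T cell genes did so in this direction and 8.73% in the other. Mast cell Cebpb, at 260 and 1547 CPM in PBS 1 and 3 against 254, 182 and 352, rested on PBS 3: without it the change was -0.06, with it -1.84 ± 0.66, and without PBS 1 -2.66 (adjusted p = 0.00126 by edgeR). Leaving out either keeps 1 PBS sample, which is then assumed to vary like the bleomycin group. The groups overlapped, where 5.74% of mast cell genes did not and were lower. Dendritic cells overlapped for the 4 members tested, at log2 fold changes of -0.46 to -0.25, where 9.1% of genes did not overlap and were lower and 7.07% were higher.

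The wider C/EBP network was followed through lists of partners, inducers and targets. Of 16 genes of signals that induce Cebpb and Cebpd, 14 were tested in fibroblasts with a median log2 fold change of -0.54 and 0 passed. In Schwann cells, where 7.75% of all genes passed, 8 were tested and 3 passed, all lower: Stat3, the transcription factor downstream of IL-6 (-1.55 ± 0.23, adjusted p = 0.00693), Socs3, its feedback inhibitor (-1.46 ± 0.33), and Il6st, the shared receptor gp130 (-0.94 ± 0.23). Of 11 zipper partners, 6 were tested there and 2 fell, Atf3 (-1.54 ± 0.33), a stress-induced repressor that also stands among the immediate early genes, and Nfil3 (-1.24 ± 0.28). Of the 19 immediate early genes, all tested, 7 fell in Schwann cells, with Nr4a1 (-1.62 ± 0.30), Zfp36 (-1.64 ± 0.31) and Klf4 (-1.36 ± 0.27) at the smallest p. The median over all Schwann genes was -0.01.

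Targets of C/EBP proteins went both ways in fibroblasts, where 1.48% of all genes passed. Of 19 acute-phase and inflammatory targets, 11 were tested, and Saa3 (3.56 ± 0.60) and Hp (4.96 ± 0.86), both acute-phase proteins, rose while complement C3 fell (-2.65 ± 0.48). Saa3 and Hp rose from PBS means of 9.23 and 0.578 CPM. Hp, at 6, 0 and 5 UMIs in PBS, had enough counts for a test through the bleomycin libraries only, so its rise is a description. Saa3, at 3.61, 5.46 and 18.6 CPM in PBS 1, 2 and 3, also needed the bleomycin libraries to reach the test, so its rise is a description too. Of 10 genes of the ATF4 stress response, 8 were tested and 2 rose, Phgdh (1.64 ± 0.24) and Psat1 (1.90 ± 0.30), enzymes of serine synthesis. Their adjusted p was 0.0369 to 0.0489 by edgeR. Fabp4 (3.63 ± 0.58), an adipocyte lipid carrier, and Mmp9 (4.29 ± 0.79), a granule gelatinase of neutrophils, rose from means of 9.67 and 2.21 CPM, 1 of 3 adipocyte targets tested and the 1 granule target tested. Mmp9, at 12, 2 and 12 UMIs in PBS, also had enough counts for a test through the bleomycin libraries only, so its rise is a description. Ass1, listed as a proximal tubule gene, rose as well (3.89 ± 0.61), 1 of 2 genes of that list tested. Of these 8 fibroblast genes, 0 passed without shared barcodes, 1 with doublets kept, 0 without PBS 1, PBS 2, bleomycin 1 or bleomycin 2, 3 without PBS 3 and 2 without bleomycin 3. Cxcl1 (-3.10 ± 0.71) and Ccl2 (-2.73 ± 0.62), chemokines, were the 2 of 3 tested targets called lower in Schwann cells (7.75% of all genes passed), and both calls rested on PBS 3. Cxcl1 was at 148 and 1692 CPM in PBS 1 and 3 and Ccl2 at 66.8 and 597, and without PBS 3 the changes were -0.21 and -0.13. Lyz2 (-5.36 ± 1.20), a myeloid gene from the leukocyte list, was at 1900 and 17.1 CPM in PBS 1 and 3, and without PBS 1 its change was 0.30. Of the 11 genes named in Schwann cells, 1 passed without shared barcodes and 2 to 10 with 1 library left out. In muscle and macrophages 0 genes of these lists passed.

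**Figure D4:**
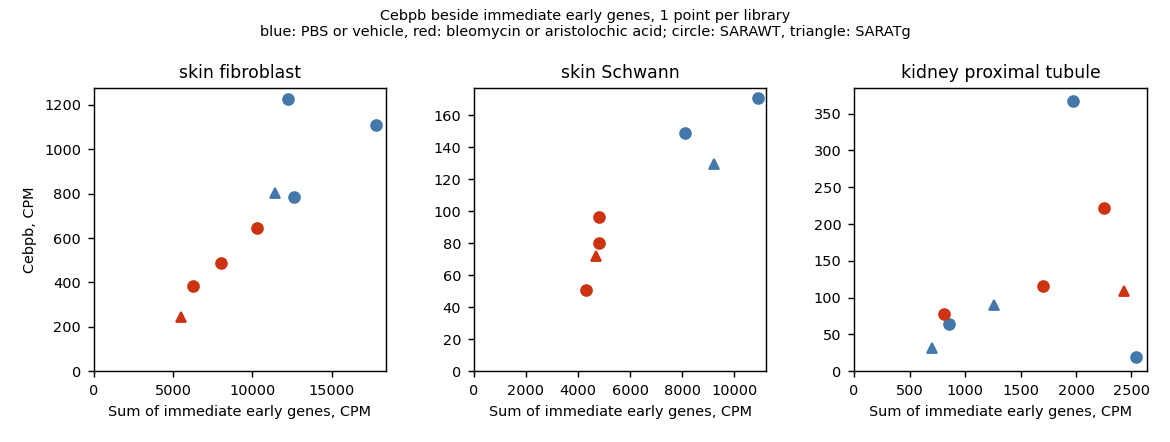
Cebpb (vertical axis, CPM) against the summed CPM of 19 immediate early genes (horizontal axis) in skin fibroblasts, skin Schwann cells and kidney proximal tubule cells, 1 point per library with at least 10 cells; blue is PBS or vehicle, red bleomycin or aristolochic acid, circles SARAWT and triangles SARATg. In both skin classes the bleomycin libraries sat lower on both axes, and in proximal tubule the library with the highest sum, SARAWT vehicle 2, had the lowest Cebpb (19.5 CPM).

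For kidney, which the choice of genes did not use, the first question was whether aristolochic acid, a plant nephrotoxin that injures the proximal tubule, changed the C/EBP genes in SARAWT mice. In 10 classes 33 gene and class pairs were tested, 12 lower and 21 higher, and 0 passed an adjusted p of 0.05 with edgeR, with 1 at an unadjusted p under 0.05, where 6.53% of all tests did so. Over all genes 1 of 76169 tests passed (0.00131%), Lpl in endothelial cells (3.18 ± 0.31, adjusted p = 0.0218, 0.0135% of endothelial genes), which encodes lipoprotein lipase. Mural cells were too few to test, at 0 to 13 a library over the 9 kidney libraries.

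In kidney macrophages 0 of the 5 members, all tested, passed. Cebpb was at 273, 480 and 730 CPM in vehicle and 1131, 613 and 1011 in aristolochic acid (log2 fold change 0.84 ± 0.41, adjusted p = 0.823 by edgeR), and the groups overlapped. Without vehicle 3 the change of Cebpb was 1.31 (adjusted p = 0.0767), and without vehicle 3 and aristolochic acid 1 it was 1.15 (adjusted p = 0.125). Cebpa was at 90.9, 81.1 and 120 CPM against 139, 129 and 132 (0.42 ± 0.22, adjusted p = 0.823), and Cebpg at 79.5, 76.5 and 61.6 against 83.4, 85.0 and 88.5 (0.23 ± 0.15). Cebpd (-0.01 ± 0.16) and Cebpe (0.43 ± 0.65) overlapped. Cebpa and Cebpg did not overlap, where 7.79% of macrophage genes did so in this direction. Without vehicle 3, the change of Cebpa was 0.67 (adjusted p = 0.0525).

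In proximal tubule, thick ascending limb and endothelial cells, 1 library of each SARAWT group was highest in Cebpb and Cebpd. Proximal tubule Cebpb was at 64.8, 19.5 and 367 CPM in vehicle 1, 2 and 3 and at 222, 78.0 and 116 in aristolochic acid 1, 2 and 3, and Cebpd at 10.4, 4.61 and 273 against 181, 10.9 and 17.2. Endothelial Cebpb was at 39.6, 21.0 and 647 CPM against 477 and 54.4, and Cebpd at 58.4, 122 and 1283 against 577 and 95.1, with aristolochic acid 3 left out for too few cells. Vehicle 3, which had the cell makeup of the treated group, and the library labelled aristolochic acid 1, whose Zfyve9 goes against its label, were the high ones.

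The thick ascending limb of Henle's loop repeated this at 22.6, 24.1 and 217 CPM of Cebpb against 87, 45 and 70.2. Without vehicle 3 the change of Cebpb there was 1.75 (adjusted p = 0.0139 by edgeR) in place of 0.01 ± 0.69. Without both libraries it was 1.64 (adjusted p = 0.0285 by edgeR). Vehicle 3 was the highest of its group, so its removal raises the change by itself. The fit without both was added after the data had been seen. The share of all genes passing in these fits is not given, so both values are a description. In dendritic cells, leaving both out gave 2.38 for Cebpb in place of 0.80 ± 0.65, with 1 treated sample remaining that was assumed to vary like the vehicle group. In proximal tubule the Cebpb change turned from -0.32 ± 0.98 to 0.94 (adjusted p = 0.45) without both. A leukocyte gene sum in proximal tubule was 73.6, 83.6 and 1755 CPM in vehicle 1, 2 and 3 and 2103, 1268 and 3413 in aristolochic acid, and its part was not tested. The immediate early sum was 851, 2544 and 1974 CPM in vehicle 1, 2 and 3 and 2249, 811 and 1706 in aristolochic acid 1, 2 and 3, with vehicle 3 between the others of its group and aristolochic acid 1 the highest of its own, and its part was not tested.

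**Figure D5:**
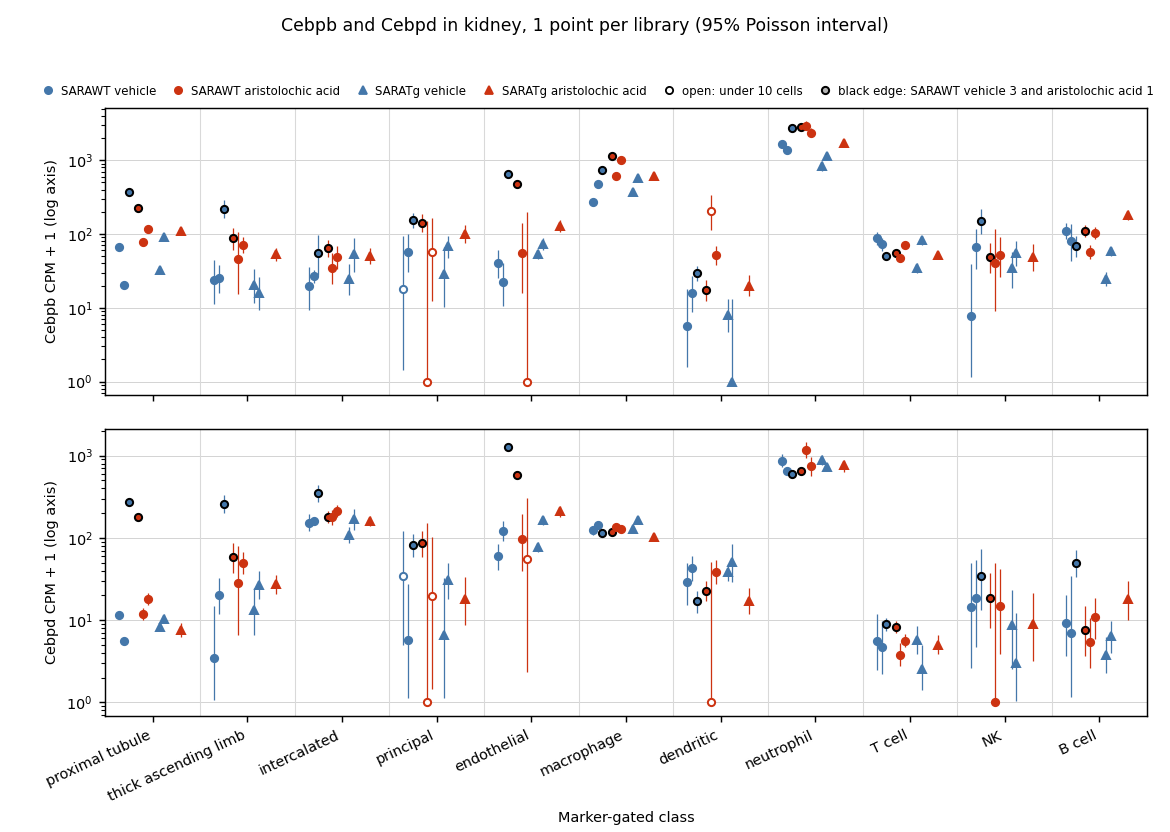
Cebpb (top) and Cebpd (bottom) in kidney, as CPM + 1 on a log axis, with 1 point per library and class and exact Poisson 95% intervals; circles are SARAWT, triangles SARATg, blue vehicle, red aristolochic acid, open circles under 10 cells and black edges SARAWT vehicle 3 and aristolochic acid 1. The 2 black-edged libraries were highest in proximal tubule, thick ascending limb and endothelial cells, up to 647 CPM of Cebpb and 1283 of Cebpd.

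The second kidney question was whether the transgene changed the C/EBP genes without injury, from 2 SARATg and 3 SARAWT vehicle libraries; the SARAWT ones are the same that served as controls for aristolochic acid. In 11 classes 39 pairs were tested, 21 lower and 18 higher in SARATg, and 0 passed with edgeR, where 109 of 85115 tests over all genes did (0.128%), with 5 at an unadjusted p under 0.05, where 5.21% of all tests did so. By class, 1.8% of genes passed in principal cells, 0.218% in the thick ascending limb, 0.032% in NK cells, 0.0144% in dendritic cells and 0 in the other 7. In 6 pairs the groups did not overlap, 3 of them lower, where over all genes 14.3% were lower and 8.48% higher without overlap. Neutrophil Cebpb was at 1665, 1383 and 2740 CPM in SARAWT and 831 and 1148 in SARATg (log2 fold change -0.94 ± 0.41, adjusted p = 0.922 by edgeR), where 10.9% of genes did so in this direction. Proximal tubule genes summed to 7962 to 22071 CPM in these SARAWT neutrophils and to 5639 and 25648 in SARATg, and their part was not tested. B cell Cebpb was at 109, 78.6 and 67.8 against 23.9 and 57.1 CPM (-1.19 ± 0.39, adjusted p = 0.549; 7.99% of genes). The thick ascending limb had 22.6, 24.1 and 217 against 19.2 and 15.1 CPM (-1.84 ± 0.96, adjusted p = 0.738), a change of -0.11 without vehicle 3, and 29.1% of genes did not overlap in that direction. T cell Cebpg (0.66 ± 0.25, 6.33% of genes), macrophage Cebpg (0.38 ± 0.19, 10.7%) and endothelial Cebpa (1.88 ± 0.68, from 4.54 to 13.7 CPM, 7.45%) were the higher ones. Endothelial Cebpa had too few counts for a test against aristolochic acid with the same SARAWT libraries. It entered here with the SARATg libraries, where it was higher, so its rise is a description. Without vehicle 3 the changes were -0.56 for neutrophil Cebpb, -1.33 for B cell Cebpb, 0.60 and 0.34 for T cell and macrophage Cebpg and 1.23 for endothelial Cebpa. Median depth did not overlap in T cells (2543 to 2808 UMIs a cell in SARAWT, 2998 and 3826 in SARATg) or macrophages (5014 to 10418.5 against 4080.5 and 4706), and its part was not tested.

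Cebpe had enough counts for a test in macrophages and, in this comparison, in neutrophils, where it stood at 57.9, 45.6 and 7.02 CPM in SARAWT and 13.9 and 110 in SARATg (log2 fold change 1.24 ± 0.82), and the groups overlapped. Of the network lists, Fos, an immediate early gene, fell in the thick ascending limb (-2.49 ± 0.37, adjusted p = 0.0294), where 0.218% of all genes passed. Of the 16 tested genes of that list 14 were below 0, with a median of -1.08 against -0.00084 over all genes, in a class where 29.1% of all genes were lower and 3.57% higher without overlap. Kap, an androgen-regulated gene of the proximal tubule list, rose in principal cells (3.43 ± 0.49, adjusted p = 0.00333), 1 of 5 genes of that list tested where 1.8% of all genes passed. The 10 genes of the list summed to 165 and 312 CPM in SARAWT and 399 and 979 in SARATg principal cells, and to 1306 in the 6 principal cells of SARAWT vehicle 1, which was left out of the fit. The part of proximal tubule RNA in the Kap value was not tested. The single SARATg aristolochic acid library has no test. Its macrophages held 611 CPM of Cebpb, where SARATg vehicle held 375 and 576 and SARAWT aristolochic acid 613 to 1131.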

How the data were processed

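PDGFR-β+GFP+ cells of 8 skin and 9 kidney libraries were profiled with 10x 3′ chemistry. The deposited values are UMI counts per gene and cell, which the authors made with Cell Ranger (3.0.2 in the submitters' processing notes, 4.0.0, 3.1.0 or 3.0.2 per the file headers) on mm10; their notes also name Seurat 2.3.4. Gene lists of 31053 and 32286 entries share 30406 genes.

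Cells were dropped under 200 detected genes or above a mitochondrial share of 20% of UMIs in skin and 50% in kidney, and the highest scrublet doublet scores were removed at 0.8% per 1000 cells (scanpy 1.11.5, Python 3.11.15). Counts were summed per library and marker-gated class with at least 10 cells. Groups were compared with edgeR 4.0.16 (R 4.3.3), quasi-likelihood test, filterByExpr, TMM and Benjamini-Hochberg adjustment over all genes tested at 0.05; DESeq2 1.42.0 was an alternative. SE was the log2 fold change over the square root of F. The scripts were tested on simulated data. Intervals (exact Poisson, 95%) and the floor of 3 counts cover counting error only. The labels do not say that same-numbered samples share a litter or day, nor that replicates are separate animals, so p-values measure the spread between samples. Their deviations correlated above 0.1 in every pair in skin fibroblasts (0.20 to 0.31), macrophages (0.23 to 0.57) and neutrophils (0.10 to 0.34), the data being the source of that pairing.

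Members and gene lists were chosen with earlier results of these data known. The text names the 5 members, up to 3 called genes of each list and class with the smallest adjusted p, and the 3 genes most like each member among those reaching 20 CPM in some class. Alternatives covered the normalisation tool, count filter, gate, cell filter, doublets, gene list, replicate block and each library left out.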

Additional observations from a re-analysis of the deposited data

Results flagged for a closer look

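The single SARATg treated library of each tissue entered no test, and the levels below had an exact Poisson 95% interval wholly above those of all SARATg control libraries of their tissue. Each rests on 1 library, and the intervals cover counting error only. By this measure 7 levels lay above, 16 below and 42 neither in skin, and 8, 2 and 50 in kidney. The share over all genes by the same measure is not given, so these counts are not read as particular to the C/EBP genes. In skin SARATg bleomycin, Cebpb was at 572 CPM in keratinocytes against 405 in SARATg PBS, 1598 against 1427 in macrophages, 3929 against 3293 in neutrophils, 708 against 268 in ILC2 and 1002 against 366 in mast cells. Cebpa was at 71.4 against 52.6 CPM in macrophages, and Cebpd at 61.7 against 46.4 CPM in keratinocytes. Among the levels below were Cebpb in fibroblasts (245 against 801 CPM), muscle (441 against 1722), endothelial (114 against 392) and mural cells (345 against 1208), and Cebpd in fibroblasts (115 against 420) and Schwann cells (291 against 821). The 16 include Cebpb and Cebpd of mural cells, the class whose values led to the choice of the family.

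In the kidney library labelled SARATg aristolochic acid 1, whose Zfyve9 level of 19.9 CPM goes against its label, Cebpb was at 128 CPM in endothelial cells against at most 73 in SARATg vehicle, 19 against 7.02 in dendritic cells, 1715 against 1148 in neutrophils, 181 against 57.1 in B cells, 109 against 89.9 in proximal tubule and 52.1 against 19.2 in the thick ascending limb. Cebpd was at 17 against 5.35 CPM in B cells, and Cebpg at 45.1 against 35.6 CPM in proximal tubule. The levels below were Cebpd in macrophages (102 against 127 CPM) and dendritic cells (16.3 against 37.3). Macrophage Cebpb, at 611 against at most 576 CPM, counted as neither.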

How the results depend on the processing

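No called change of a C/EBP gene turned its direction; of the list genes named in skin, Lyz2 in Schwann cells did without PBS 1 (0.30). Of the recomputed skin values, 509 stayed the same, 14 newly passed and 4 no longer passed. Staying the same meant keeping the side of the threshold or, for the untested mural values, lying within their spread. A further 1 mural value moved beyond that spread. For aristolochic acid 476 values kept their side of the threshold and 4 newly passed, and for SARATg 468 and 7. Signs of changes that had not passed turned in 47, 74 and 39 values. With DESeq2, Cebpb in fibroblasts (-1.03) and muscle (-2.14) and Cebpd in skin endothelial cells (-2.29) and muscle (-2.33) passed. Without a count filter, Cebpb passed in fibroblasts (-1.01), muscle (-1.97) and mast cells (-2.01), Cebpd in skin endothelial cells (-2.66) and muscle (-2.13), and, for SARATg, Cebpb in endothelial (-1.95), B (-1.07) and thick ascending limb cells (-1.82) and Cebpd in endothelial (-2.05) and thick ascending limb cells (-1.65). In that setting 211 of 16527 kidney endothelial genes passed for SARATg, in place of 0. In skin endothelial cells 166 of 13977 genes passed in it, and 60 of 2536 with DESeq2, in place of 6. The counts for mast, B and thick ascending limb cells are not given. With the filter and 1 library left out, the SARATg endothelial changes ranged from -2.52 to 1.14 (Cebpb) and -2.75 to 0.54 (Cebpd). Those of the thick ascending limb ranged from -2.43 to -0.11 (Cebpb) and -2.41 to 0.94 (Cebpd), and B cell Cebpb from -1.87 to -0.67. With the replicate block, Cebpb passed in fibroblasts (-1.03), Schwann cells (-1.08) and, for aristolochic acid, endothelial cells (3.06). In the last 2 classes the samples share only a number. The block keeps only numbers present in both groups, so bleomycin 2 (Schwann) and vehicle 3 (endothelial) were left out. With it 652 Schwann genes passed in place of 481, and 117 endothelial genes in place of 1. Without a block the endothelial change was 0.25, and from -2.36 to 3.45 with 1 library left out. With the gene list as a covariate Cebpb passed in Schwann cells (-1.14). Cebpd in Schwann cells no longer passed with the strict gate (-1.23) or, in an alternative added after seeing the data, without shared barcodes (-1.60). In the other added alternative, without vehicle 3 and aristolochic acid 1, Cebpb passed in dendritic (2.38) and thick ascending limb cells (1.64).

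With each library left out in turn, Cebpd ranged from -1.83 to -1.01 in Schwann cells and from -2.78 to -1.42 in muscle. Cebpb ranged from -2.66 to -0.063 in mast cells and from -0.60 to 1.75 in the thick ascending limb (aristolochic acid). In principal cells (SARATg) Cebpb ranged from -1.98 to 0.043 and Cebpd from -3.05 to -0.78. Without SARAWT vehicle 2 the principal cell changes were -1.63 and -1.96, with vehicle 3 as the only SARAWT sample. Vehicle 3 held 154 CPM of Cebpb and 81.3 of Cebpd there, and vehicle 2 held 56.8 and 4.73. Mast cell Cebpb without PBS 1 (-2.66) and muscle Cebpd without PBS 3 (-2.78) also kept 1 PBS sample. As a mean over cells, mural Cebpb was -1.65 and Cebpd in kidney neutrophils 1065 CPM. Genes passing in fibroblasts numbered 152, but 730 with DESeq2, 934 without a filter, 887 with the block, 76 with the covariate, 38 with doublets kept, 2 without shared barcodes and 0 to 73 with 1 library left out; in Schwann cells 481, but 987 without a filter, 799 with the covariate, 237 with the strict gate, 48 without shared barcodes and 74 to 666 with 1 library left out; in muscle 1, but 121 with DESeq2 and 265 without a filter. The cause of these shifts was not tested. A fit without PBS 1 and 3 could not be made for Schwann, muscle, T and mast cells, nor one with the strict gate for muscle. Few cells limited depth in several classes, among them skin mural cells (3 to 43 a library).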
